A study of Homo sapiens with 6 samples.

Results

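The luminal breast identity genes examined here were ESR1, PGR, FOXA1, GATA3, ERBB2, XBP1, TFF1, ELF5 and SPDEF, 9 of the 19970 protein-coding genes annotated on the autosomes and the X chromosome. They were chosen by name, as receptors, transcription factors and a receptor target of the luminal epithelium, by a rule that uses no value of the peak lists, though with earlier results of these data known. All cells were MDA-MB-231, an established human breast cancer line of the triple-negative class, which means tumours that lack the estrogen receptor, the progesterone receptor and amplified HER2. Chromatin immunoprecipitation sequencing (ChIP-seq) was performed for the transcription factor E2F1 in 3 libraries, from untreated cells, from cells given the vehicle DMSO for 72 h and from cells given GSK126, an inhibitor of the histone methyltransferase EZH2, at 1 µM for 72 h. The repressive histone mark H3K27me3, which EZH2 deposits, was profiled in 2 further libraries, of which the control shRNA library served as the reference for shE2F1, a hairpin that targets E2F1. Transduction took 24 h in either case and was followed by 72 h in puromycin (2 µg/ml) before the cells were used. An input library of untreated cells was the only other sample of the series, and each of the 6 groups held 1 library, so no difference had a replicate check and no p-value is given.

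Luminal epithelial cells line the milk ducts, and their identity rests on a small circuit of transcription factors. FOXA1, a pioneer factor that can open closed chromatin, and GATA3 act together with the estrogen receptor encoded by ESR1, and PGR and TFF1 are textbook targets of that receptor. Triple-negative lines of the basal type are known for low or absent expression of these genes. H3K27me3 is laid down over silent developmental genes by the Polycomb complex that contains EZH2, and E2F1 is best known for binding the promoters of cell cycle and DNA replication genes.

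The libraries differed widely in the number of peaks called. The untreated E2F1 list held 1056 peaks, against 15703 in DMSO and 14276 in GSK126, and the H3K27me3 lists held 123957 peaks in control shRNA and 135683 in shE2F1. The absence of a peak in the untreated list therefore said little about a gene, since that list reached 5.85% of all protein-coding promoters. H3K27me3 peaks were mostly weak, with a median fold enrichment over background of 3.17 in control shRNA and 2.95 in shE2F1. The files held peaks and no expression, so neither the silence of the luminal genes nor the depletion of E2F1 could be checked in them, and the height of a peak could not tell the share of cells that carry a mark from its amount per cell.

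E2F1 promoter peaks were listed at 3 of the 9 luminal genes at most. A promoter peak of E2F1 was one whose summit lay within 1000 bp of any annotated transcription start site (TSS) of the gene. In the untreated list 0 of the 9 genes had one, where 5.85% of all protein-coding genes did. In DMSO only XBP1 was called, 1 of 9 against a background of 33.5%, and in GSK126 FOXA1, ERBB2 and XBP1 were called, 3 of 9 against 51.5%. FOXA1 and ERBB2 were called in GSK126 and not in DMSO, 2 of 9 where 18.7% of all genes were, and 0 of 9 showed the opposite change, for which the background was 0.796%. H3K27me3 touched the promoter windows of ESR1, PGR, FOXA1 and XBP1 in control shRNA, 4 of 9 against 27.1%, and of the same 4 genes in shE2F1, where the background was 51.2%. Those 4 were 4 of 9 with the mark in both lists, against 25.2% of all genes. An H3K27me3 promoter peak in shE2F1 alone was seen at 0 of 9, against 26.0% of all genes, and in control shRNA alone at 0 of 9, against 1.94%. GATA3, TFF1, ELF5 and SPDEF had no promoter peak in any of the 5 lists, 4 of 9 against 26.1%. The combination seen at ESR1 and PGR over the 5 lists, H3K27me3 in both libraries and no E2F1, was shared by 14.6% of all genes, that of ERBB2 by 8.26%, that of XBP1 by 5.09% and that of FOXA1 by 4.07%. With 9 genes, each share moves by 11.1 percentage points per gene, and no share was tested against its background.

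**Figure D1:**
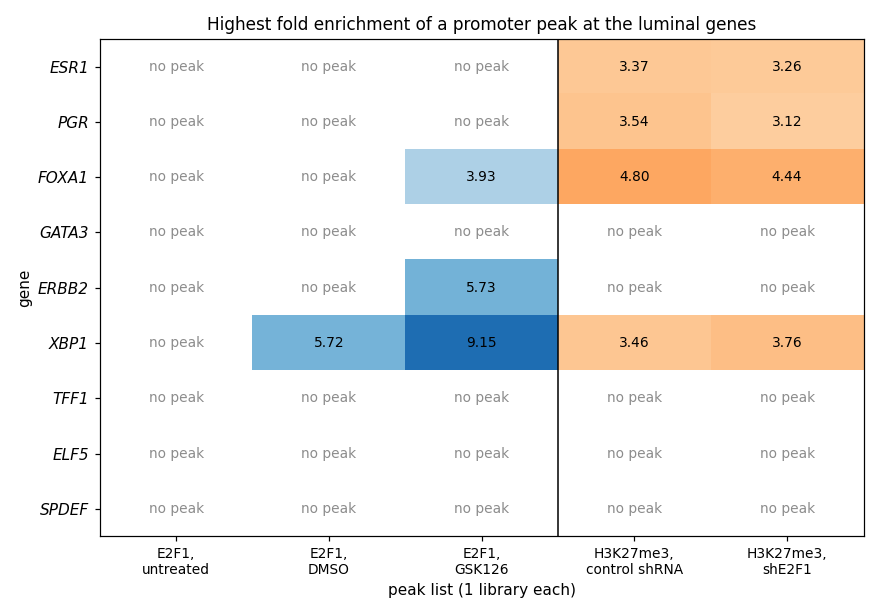
Highest fold enrichment among the promoter peaks of each luminal gene (rows) in each of the 5 peak lists (columns, 1 library each), with E2F1 in blue and H3K27me3 in orange. XBP1 is the only gene with values in 4 lists, FOXA1 has values in 3, and GATA3, TFF1, ELF5 and SPDEF have none.

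Sequences are shown for the promoters and E2F1 sites on which these calls turned, because the CpG content of the promoters differed between the genes. Each runs 5′ to 3′ on the strand of the gene, in GRCh38 coordinates, with CpG dinucleotides in capitals. The stretch of XBP1 directly before its outermost TSS lay inside the E2F1 peaks of DMSO and GSK126 and held 21 CpGs in 160 bases.
XBP1 upstream, chr22:28800598-28800757: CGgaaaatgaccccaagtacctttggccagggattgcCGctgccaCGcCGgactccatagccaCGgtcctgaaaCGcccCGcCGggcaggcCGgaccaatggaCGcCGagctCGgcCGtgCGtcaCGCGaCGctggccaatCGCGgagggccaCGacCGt
The FOXA1 and ERBB2 stretches are the 151 bases centred on the GSK126 summits that lie in introns, and they held 11, 20 and 15 CpGs.
FOXA1 inner site, chr14:37594594-37594744: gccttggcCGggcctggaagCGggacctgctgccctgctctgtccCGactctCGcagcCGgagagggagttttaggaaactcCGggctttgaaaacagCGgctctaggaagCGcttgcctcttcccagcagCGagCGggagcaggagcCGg
FOXA1 outer site, chr14:37595337-37595487: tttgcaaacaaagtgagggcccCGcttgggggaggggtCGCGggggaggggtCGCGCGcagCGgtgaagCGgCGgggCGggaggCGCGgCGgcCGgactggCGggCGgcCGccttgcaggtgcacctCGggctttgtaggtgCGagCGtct
ERBB2 intronic site, chr17:39700324-39700474: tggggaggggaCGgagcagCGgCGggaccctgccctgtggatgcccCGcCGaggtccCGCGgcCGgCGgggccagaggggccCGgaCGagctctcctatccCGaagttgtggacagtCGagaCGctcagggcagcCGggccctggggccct
The GATA3 promoter, with 26 CpGs in the 250 bases before the canonical start, was also rich in CpG and carried no peak of either kind.
GATA3 upstream, chr10:8054438-8054687: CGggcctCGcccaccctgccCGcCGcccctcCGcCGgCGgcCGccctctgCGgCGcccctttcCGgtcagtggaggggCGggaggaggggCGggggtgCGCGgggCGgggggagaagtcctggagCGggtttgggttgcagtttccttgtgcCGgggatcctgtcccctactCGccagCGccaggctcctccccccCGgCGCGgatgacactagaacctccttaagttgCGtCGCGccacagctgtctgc
The sequences before the starts of PGR, ESR1 and SPDEF were poorer, with 5 CpGs in 250 bases, 5 in 169 bases and 6 in 246 bases. Those of ESR1 and SPDEF were cut to the longest part without annotated UTR. The full 300-base promoter window of ESR1 held 17 CpGs.
PGR upstream, chr11:101129814-101130063: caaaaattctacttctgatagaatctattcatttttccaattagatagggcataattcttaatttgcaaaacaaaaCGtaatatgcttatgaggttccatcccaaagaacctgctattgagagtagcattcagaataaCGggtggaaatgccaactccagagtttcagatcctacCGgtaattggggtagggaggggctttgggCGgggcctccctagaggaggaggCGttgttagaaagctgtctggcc
ESR1 upstream, chr6:151807510-151807678: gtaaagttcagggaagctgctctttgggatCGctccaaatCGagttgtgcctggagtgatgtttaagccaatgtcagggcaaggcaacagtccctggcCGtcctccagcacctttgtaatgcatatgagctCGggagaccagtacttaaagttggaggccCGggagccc
SPDEF upstream, chr6:34556334-34556579: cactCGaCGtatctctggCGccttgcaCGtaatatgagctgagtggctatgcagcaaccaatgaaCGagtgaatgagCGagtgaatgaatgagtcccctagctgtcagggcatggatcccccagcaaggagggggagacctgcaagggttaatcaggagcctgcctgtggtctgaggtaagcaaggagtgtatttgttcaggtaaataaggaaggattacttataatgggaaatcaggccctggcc

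The RefSeq table of promoter windows on GRCh38, each of 300 bases from 250 before to 50 after a start, matched 8 of the 9 genes with 21 windows; TFF1 had no entry. All 21548 windows of protein-coding genes held a median of 21.0 CpGs (quartiles 7 and 31.0). The 4739 windows with a GSK126 summit held a median of 31.0, and the 16809 without one held 16.0. At the start nearest the canonical TSS, XBP1 held 40 CpGs, FOXA1 34, GATA3 29, ERBB2 24, ESR1 17, SPDEF 8, PGR 7 and ELF5 2. For ERBB2 and ELF5 that RefSeq start was another than the canonical one, at −11970 and 2070 bp from it. Of these windows, those of XBP1 and FOXA1 held a GSK126 summit. The ERBB2 window held none, since the summit at that start lay just beyond its end, and neither did that of GATA3 or of the 4 genes with fewer CpGs. Among windows with 27 to 31 CpGs, as at GATA3, 37.1% held a GSK126 summit, and among those with 5 to 9, as at PGR, 0.999% did. PGR also had windows 736 and 750 bp downstream of its canonical TSS, with 15 and 17 CpGs and no GSK126 summit. Of windows with 15 to 19 CpGs, 16.9% held a GSK126 summit. Windows with 0 to 4 CpGs, as at ELF5, held one in 0.155% of cases. H3K27me3 in control shRNA lay in 10.2% of windows like that of ESR1 and in 17.0% of windows like that of XBP1, the lowest and highest shares among the 8 genes. In shE2F1 the shares differed more, from 16.5% of windows like that of ELF5 and 17.8% like that of PGR to 42.4% like that of GATA3 and 60.4% like that of XBP1. Other features that go with CpG content, such as expression, were not measured here.

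**Figure D2:**
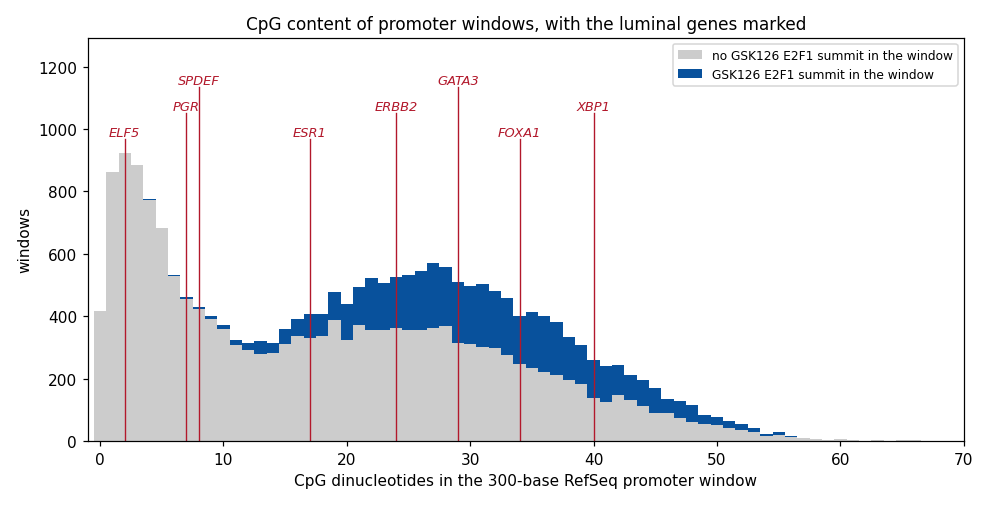
Number of RefSeq promoter windows (vertical axis) by CpG dinucleotides per 300 bases (horizontal axis), split by whether an E2F1 summit of the GSK126 list lies in the window, with the window nearest the canonical TSS of 8 luminal genes marked by red lines. Windows with few CpGs hold almost no blue, and ELF5, PGR and SPDEF fall there at 2, 7 and 8 CpGs, whereas FOXA1 and XBP1 fall at 34 and 40.

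The E2F consensus was searched as TTNNCGC, where each N may be C or G, on both strands. Within 100 bp of the summit it occurred in 54.5% of untreated, 17.5% of DMSO and 26.9% of GSK126 peaks. None of the 6 E2F1 promoter peaks of FOXA1, ERBB2 and XBP1 held these letters within that distance. At XBP1 the nearest copy, TTGCCGC on the strand of the gene, stood at −155 relative to the canonical start and 160 and 157 bp from the DMSO and GSK126 summits, and it begins at position 34 of the XBP1 sequence printed above. The intronic ERBB2 peak held 2 copies, the nearer of them 204 bp from the summit, and the FOXA1 promoter peaks held none. The FOXA1 promoter window held TTCCCGC 17 bases after its start, between its 2 promoter peaks. The letters also occurred where no E2F1 promoter peak was listed, as TTGCCGC in 2 overlapping windows of PGR and as TTCCCGC in 1 window of GATA3. Of all promoter windows, 16.3% held the letters. A match or its absence describes these letters alone and not the binding of a factor.

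Among the hormone receptors, ESR1 and PGR shared the pattern of H3K27me3 without E2F1 at the promoter. ESR1, which encodes estrogen receptor alpha, spans chr6:151656691-152129619 on the plus strand and has 12 annotated TSSs. Its canonical TSS, at position 151807682, lay under an H3K27me3 peak of 2758 bp in control shRNA (chr6:151806856-151809613, fold 3.14, −log10 q 1.87) and of 1852 bp in shE2F1 (chr6:151806884-151808735, fold 3.26, −log10 q 2.35). The mark covered 1827 and 1799 of the 2001 bp around that TSS. The covered length was nearly the same in both libraries, and no spread between replicates was available to set the difference against. The whole ESR1 promoter set held 4 H3K27me3 peaks in control shRNA and 3 in shE2F1, spread over several alternative starts. The nearest E2F1 peaks of DMSO and GSK126 lay 354904 and 354344 bp upstream, at the promoters of RMND1 and ARMT1, and only 8.57% and 5.19% of protein-coding genes were as far from an E2F1 peak of those lists.

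H3K27me3 was scattered over the long ESR1 gene as many small peaks. Over its 472929 bp there were 34 peaks in control shRNA, or 7.19 per 100 kb, and 39 in shE2F1, or 8.25 per 100 kb, where 599 genes of like length (within a factor of 1.5) had medians of 0.804 and 1.07. The peaks covered 6.11% and 6.23% of the gene, more than in 78.5% and 74.3% of those genes. They were weak in both libraries, with −log10 q from 1.25 to 2.64 in control shRNA and from 1.01 to 2.35 in shE2F1. Their median −log10 q was 1.66 and 1.31, beside 1.68 and 1.53 over all peaks of those lists. Only 11 of the 34 and 11 of the 39 overlapped a peak of the other library, which is 32.4% and 28.2%, against 67.5% and 56.5% of all H3K27me3 peaks of those lists. The total cover of ESR1 thus differed little between the libraries, while most of the individual peaks were called in 1 of them.

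PGR, the progesterone receptor gene, lies at chr11:101029624-101129813 on the minus strand, with the antisense gene PGR-AS1 starting within 1000 bp of it. The promoter peak measured 1715 bp in control shRNA (chr11:101128161-101129875, fold 3.28, −log10 q 2.45) and 2051 bp in shE2F1 (chr11:101128772-101130822, fold 3.12, −log10 q 2.21). In control shRNA the peak ran from the TSS into the gene and covered 1063 of the 2001 bp around the canonical TSS, and in shE2F1 it reached to both sides and covered all 2001. The gene held 16 and 18 H3K27me3 peaks, which covered 10.1% and 11.9% of its length, more than in 86.8% and 85.8% of the 3106 genes of like length. Here 11 peaks of each library overlapped the other, 68.8% and 61.1%, close to the shares over all peaks.

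E2F1 was listed inside PGR in DMSO, at a distance from the promoter. An intronic peak had a fold of 4.05 and 12 fragments at its summit, and another had a fold of 4.13 and 11 fragments. Neither was listed in GSK126 or in the untreated library, and the smallest DMSO peaks held 9 fragments, so both were near the lower limit of that list. The second overlapped an H3K27me3 peak by 178 bp in control shRNA and by 157 bp in shE2F1.

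**Figure D3:**
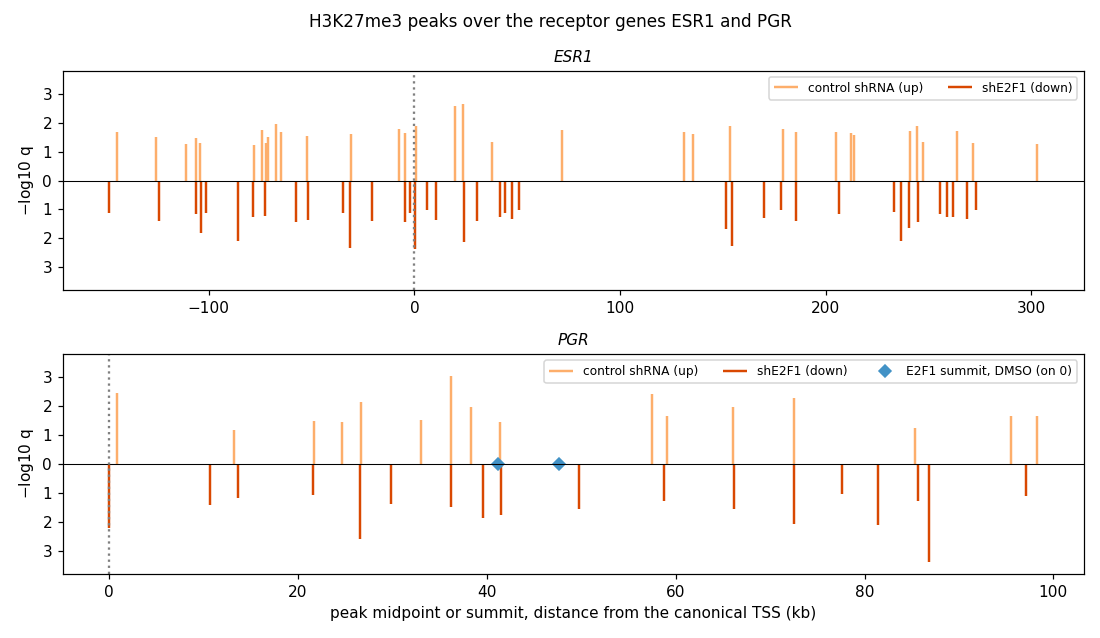
H3K27me3 peaks over ESR1 and PGR, drawn at their midpoints as distance from the canonical TSS in kb (horizontal axis, in the direction of transcription) with height as −log10 q, for control shRNA upward and shE2F1 downward, and the DMSO E2F1 summits of PGR as diamonds at 0. The lines of ESR1 stay at or below 2.64 and those of PGR at or below 3.38. They are spread over both genes, with wide stretches of ESR1 that hold none in a library.

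ERBB2, which encodes the receptor tyrosine kinase HER2, showed the reverse, with E2F1 and without H3K27me3 at the promoter. It spans chr17:39687914-39730426 on the plus strand and has 21 annotated TSSs, with a start of the gene PGAP3 within 1000 bp of an ERBB2 start. The GSK126 list held 2 E2F1 peaks there and the untreated and DMSO lists 0. The stronger lay at the upstream start (chr17:39687962-39688437, fold 5.73, −log10 q 14.2, 34 fragments over a background of 5.11), 57 bp from the nearest TSS, in a UTR exon of ERBB2 that is also an intron of the neighbour PGAP3. The other lay in an intron 335 bp downstream of the canonical TSS (chr17:39699856-39700740, fold 4.83, −log10 q 10.8, 31 fragments over 5.62). Of GSK126 promoter peaks within 10% of these folds, 35.5% (95% Clopper-Pearson interval 33.2 to 37.9) and 23.9% (21.7 to 26.2) overlapped a DMSO peak, so a missing DMSO peak was the common case at this height. H3K27me3 was absent from all 19364 bp of the ERBB2 promoter windows in both libraries, and the shE2F1 library held a 270-bp peak at the far end of the gene, in a coding exon of MIEN1. In the untreated and DMSO lists the nearest E2F1 peak, 38334 and 38217 bp away, stood at the promoter of GRB7, the neighbour that is often co-amplified with ERBB2 in breast tumours.

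Of the transcription factor genes, FOXA1 carried the broadest H3K27me3. FOXA1 lies at chr14:37589552-37596059 on the minus strand, beside a start of TTC6. A domain over the body of the gene measured 3174 bp in control shRNA (chr14:37590488-37593661, fold 4.80, −log10 q 4.91) and 3486 bp in shE2F1 (chr14:37590305-37593790, fold 4.44, −log10 q 4.83). A domain upstream, in an intron of TTC6, measured 6690 bp (chr14:37596004-37602693, fold 3.87, −log10 q 3.21) and 6799 bp (chr14:37596351-37603149, fold 3.11, −log10 q 2.18). Only 1.03% of control and 1.56% of shE2F1 peaks were as wide as the upstream domain. The mark covered 49.6% and 53.6% of the gene, more than in 95.2% and 94.5% of 2581 genes of like length, and 20.5% and 19.0% of the 100 kb centred on the TSS.

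The canonical FOXA1 TSS itself lay in a gap between the 2 domains, of 2342 bp in control shRNA and 2560 bp in shE2F1. In shE2F1 the upstream domain ended 1102 bp from the canonical TSS, so its promoter call there rested on another start of the gene, and with canonical starts alone 3 of the 9 genes were called in shE2F1. The GSK126 list placed E2F1 inside the gap, in introns of FOXA1, at chr14:37594389-37594830 (fold 3.93, −log10 q 6.12, 23 fragments) and chr14:37595347-37595680 (fold 3.03, −log10 q 2.62, 16 fragments). Both peaks lay between the domains of both H3K27me3 libraries, the closest approach being 323 bp. The outer peak, chr14:37595347-37595680, also lay at the promoter of TTC6. A further GSK126 peak, at chr14:37588101-37588457 beyond the 3′ end of the gene (fold 4.22, −log10 q 4.36), lay within an H3K27me3 peak in both libraries. The DMSO list held no peak within 422482 bp. The promoter peaks were low, and of GSK126 promoter peaks within 10% of their folds 15.9% (Clopper-Pearson 13.6 to 18.5) and 5.48% (3.16 to 8.75) overlapped a DMSO peak.

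XBP1, which encodes a transcription factor of the unfolded protein response that is abundant in luminal tumours, was the only gene with E2F1 in both treated lists. It lies at chr22:28794555-28800597 on the minus strand. Another annotated gene, known only by its Ensembl identifier, starts within 1000 bp, and the E2F1 and H3K27me3 peaks described here lie at its promoter too. The DMSO peak (chr22:28800172-28800757) had a fold of 5.72, a −log10 q of 9.95 and 24 fragments at the summit, and the GSK126 peak (chr22:28800065-28800761) had a fold of 9.15, a −log10 q of 23.7 and 37 fragments. Their summits, in a UTR exon, lay 3 and 5 bp from the nearest TSS. The log2 ratio of GSK126 to DMSO fold was 0.68, beside a median of 0.73 (quartiles 0.49 and 0.94) over the 6315 promoter peaks shared by the 2 lists. The log2 ratio of summit fragments, each divided by the lowest background of its list (1.82 in DMSO, 1.7 in GSK126), was 0.72. Its 95% interval was −0.02 to 1.46, from the counting error of the fragments only, and the median over the shared peaks was 0.77. XBP1 was therefore higher in GSK126 by about as much as the typical shared promoter, and its own interval reached 0.

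H3K27me3 at XBP1 was narrow and lay on the same bases as E2F1. The peak measured 220 bp in control shRNA (chr22:28800480-28800699, fold 3.46, −log10 q 2.30) and 589 bp in shE2F1 (chr22:28800141-28800729, fold 3.76, −log10 q 3.27). It overlapped the DMSO E2F1 peak by 220 and 558 bp and the GSK126 peak by 220 and 589 bp. The covered share of the gene was 1.95% in control shRNA and 7.56% in shE2F1, and all of it lay within 1000 bp of a TSS. As a percent of gene length this was the largest difference among the 9 genes. The gene is short, at 6043 bp, and the ranking does not hold for covered bases. The E2F1 and H3K27me3 libraries came from different cultures, so an overlap of positions did not show that the same chromatin carried both.

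GATA3, a zinc-finger factor of luminal differentiation, lay far from every peak. It spans chr10:8045378-8075198 on the plus strand, with GATA3-AS1 starting within 1000 bp of one of its starts. Its canonical TSS fell in a span of 3198961 bp without an E2F1 peak in DMSO and of 3198213 bp in GSK126, and 1.78% and 1.71% of protein-coding genes lay in a span at least that long. The H3K27me3 lists were empty over 914859 bp around it in control shRNA and 1092841 bp in shE2F1, spans matched in length by 8.36% and 2.19% of genes. The nearest peaks of DMSO, GSK126 and shE2F1, 235988, 235359 and 235971 bp upstream, all stood at the promoter of TAF3. Of the 29821 bp of the gene itself, 0 bp carried a peak of either kind. Whether reads could be mapped or were present in normal number over this span was not tested.

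ELF5 and SPDEF, ETS factors of the luminal progenitor and of secretory epithelium, had neither mark at their promoters. ELF5 (chr11:34478791-34525193, minus strand) held 2 intronic H3K27me3 peaks in control shRNA and 3 in shE2F1, none shared, with −log10 q of 1.35 at most. Its nearest E2F1 peaks lay 401962 bp away in DMSO, at the promoters of APIP and PDHX, and 85906 bp away in GSK126. SPDEF (chr6:34537802-34556333, minus strand) had 0 peaks over its body in the 5 lists. The nearest E2F1 peak of the untreated and GSK126 lists, 28776 and 28656 bp away, lay in a coding exon of PACSIN1, and that site was not listed in DMSO. TFF1, the trefoil factor that serves as a marker of estrogen receptor activity, lies at chr21:42362282-42366535 on the minus strand and had 0 peaks over its body. The nearest H3K27me3 peaks to its TSS lay 9391 bp away in control shRNA and 4619 bp in shE2F1, and the mark covered 12.4% and 16.3% of the 100 kb centred on the TSS, more than or as much as around 82.9% and 83.8% of genes.

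**Figure D4:**
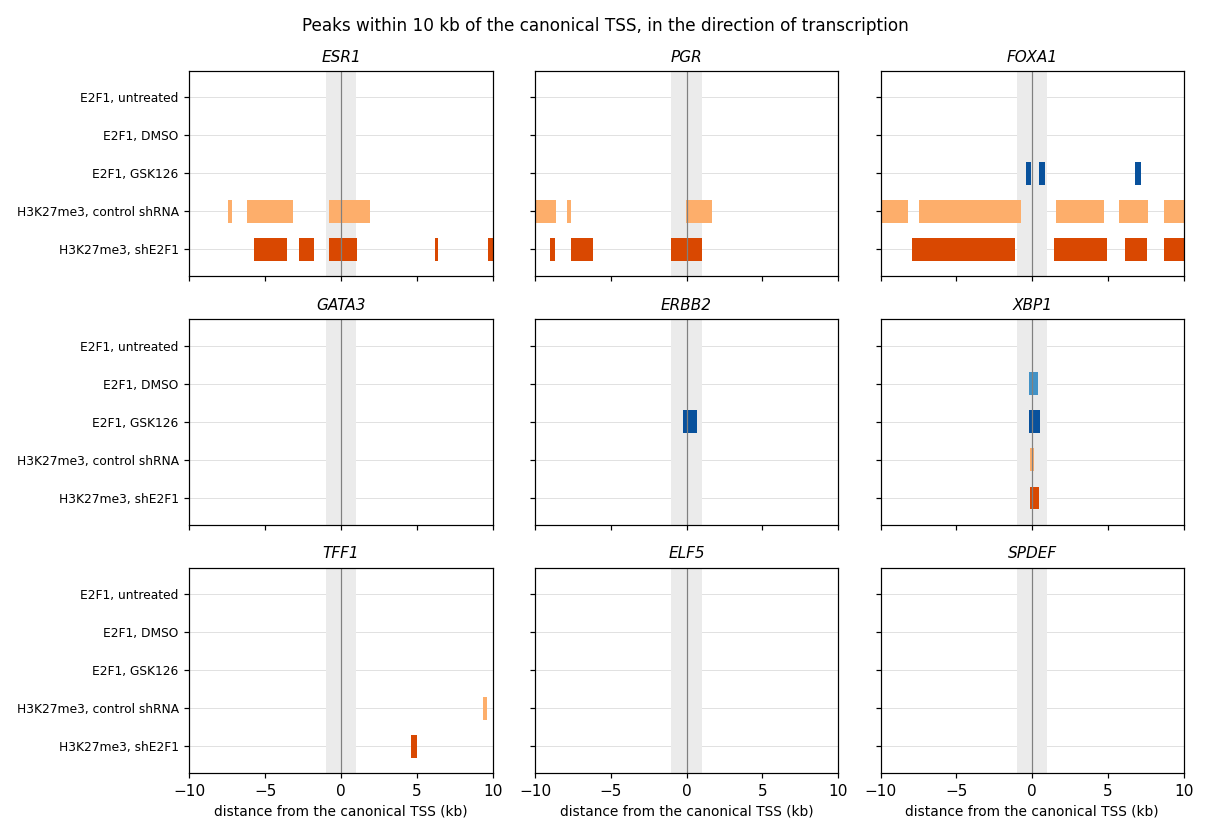
Peaks of the 5 lists within 10 kb of the canonical TSS of each luminal gene, as distance in kb in the direction of transcription, with the 1000 bp on either side of that TSS shaded. FOXA1 has E2F1 peaks of GSK126 in the gap between H3K27me3 domains, XBP1 has E2F1 and H3K27me3 on the same bases, and GATA3, ELF5 and SPDEF have 0 peaks in the window.

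The gene bodies, from the outermost start to the end, include TSSs, so their counts are not independent of the promoter counts. Every GSK126 E2F1 peak counted over a gene body was also a promoter peak. In the untreated list 0 of 9 genes held an E2F1 peak, against 5.06% of all genes, in DMSO PGR and XBP1 did, 2 of 9 against 35.1%, and in GSK126 FOXA1, ERBB2 and XBP1 did, 3 of 9 against 53.4%. H3K27me3 lay over ESR1, PGR, FOXA1, XBP1 and ELF5 in control shRNA, 5 of 9 against 34.1%, and also over ERBB2 in shE2F1, 6 of 9 against 56.8%. The cover of the 6 genes was 0.13 to 5.61 percentage points higher in shE2F1, where the mean over all protein-coding genes was 5.52% in control shRNA and 7.51% in shE2F1. Within 1000 bp of the TSSs the order was not the same for all genes. The cover there was 26.3% in control shRNA and 19.1% in shE2F1 at ESR1 and 38.3% and 32.6% at FOXA1, lower in shE2F1, but 25.7% and 32.6% at PGR and 4.93% and 13.2% at XBP1.

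The other gene lists placed the luminal genes beside their neighbours in biology. Over all protein-coding genes, an E2F1 promoter peak was listed for 5.85% in untreated, 33.5% in DMSO and 51.5% in GSK126 cells. Of 32 other luminal genes 0 had an E2F1 promoter peak in the untreated list, 5 in DMSO (15.6%) and 10 in GSK126 (31.2%). MLPH and MYB had the strongest DMSO peaks of that list, at folds of 10.3 and 5.59. Of 24 basal and mesenchymal genes 3, 12 and 13 had one, that is 50.0% in DMSO and 54.2% in GSK126, and VIM, the mesenchymal intermediate filament, and CAV1, the caveolar coat protein, reached DMSO folds of 19.7 and 13.9. All 22 usual E2F target genes had one in both treated lists and 16 in the untreated list, and PCNA and MCM3, of the DNA replication machinery, reached DMSO folds of 42.4 and 40.3.

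Of 16 receptor partners and regulators 1, 6 and 15 had an E2F1 promoter peak in untreated, DMSO and GSK126 cells, and FOXM1, a proliferation factor, and TFAP2A, a factor that cooperates with hormone receptors, reached DMSO folds of 25.7 and 9.72. Over all protein-coding genes, an H3K27me3 promoter peak was listed for 27.1% in control shRNA, 51.2% in shE2F1 and 26.0% in shE2F1 alone. For H3K27me3, 11 of the 32 other luminal genes had a promoter peak in control shRNA and 15 in shE2F1, with 4 in shE2F1 alone, and the most significant shE2F1 peaks were those of OVOL1 (−log10 q 3.95) and SCUBE2 (3.47). Those values lay below the 4.83 of FOXA1. The basal and mesenchymal genes had 6 and 12, with 6 in shE2F1 alone, the usual E2F targets 3 and 12, with 9 in shE2F1 alone, and the receptor partners 3 and 11, with 9 in shE2F1 alone. The most significant shE2F1 peaks of those 3 lists were at FOXC1 and ID4 (−log10 q 4.31 and 4.26), at RBL1 and RRM1 (27.4 and 14.9) and at FOXM1 and TFAP2A (6.99 and 5.48). FOXC1 stood in both the basal list and the receptor list, and GRHL2 in both the other luminal list and the receptor list. Over all genes, those with a DMSO E2F1 promoter peak had H3K27me3 there in 19.9% of cases in control shRNA and 62.4% in shE2F1, and those without one in 30.7% and 45.5%. The 8 luminal genes without a DMSO peak had the mark in 3 cases in either library. These lists were compared by counts alone, and no difference between them was tested.

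**Figure D5:**
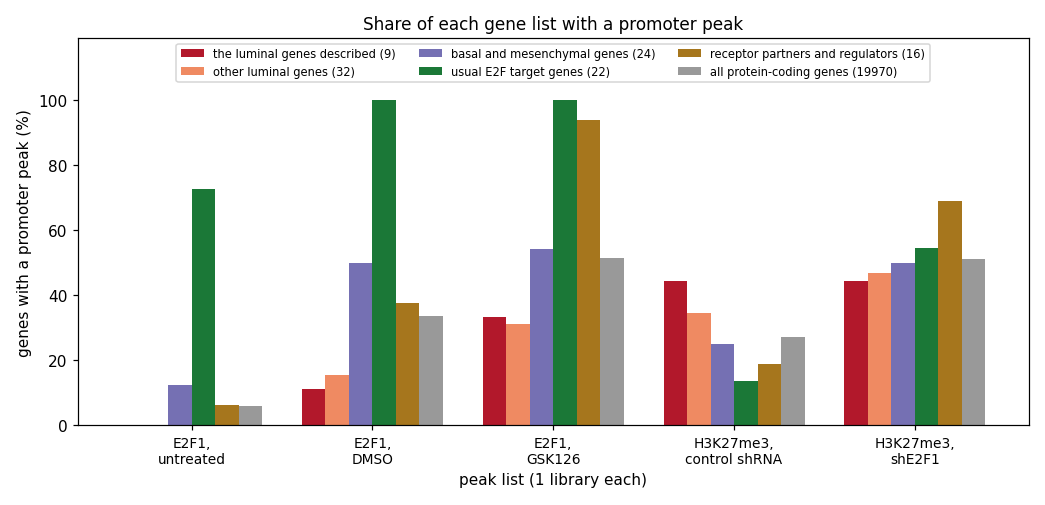
Percent of genes with a promoter peak in each of the 5 lists, for the 9 luminal genes, 4 other gene lists and all 19970 protein-coding genes (numbers of genes in the key). The bars of the luminal genes lie below the grey background in all 3 E2F1 lists, above it for H3K27me3 in control shRNA (44.4% against 27.1%) and below it in shE2F1 (44.4% against 51.2%). With 9 luminal genes, no such difference was tested.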

How the data were processed

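The authors trimmed adapters with cutadapt 4.5, filtered reads with Picard and SAMtools, aligned them to GRCh38 with Bowtie2 2.5.2 and called peaks with MACS2 2.2.9.1, in narrow mode at a q threshold of 0.01 for E2F1 and in broad mode with a cutoff of 0.1 for H3K27me3. FastQC 0.11.5 is also named in the submitters' processing notes. The deposited fold values are ratios of the signal over the local background, at the summit for E2F1 and averaged over the peak for H3K27me3. Which libraries were called against the input of untreated cells is not given in the sources used here, so the background may be the input or the library itself. The deposited p-values and q-values are given as −log10, and the deposited score column, a rescaled −log10 q, was not used. Read depth was not given in the files. The labels describe sonication for all chromatin and the methods nuclease digestion for the histone mark, so the fragmentation is unsettled.

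Peaks were joined to GENCODE release 44, a later annotation than that of the authors, with Python 3.11.15, numpy 2.4.6, pandas 2.3.3 and scipy 1.17.1. An H3K27me3 promoter or gene body peak needed 1 bp of overlap, and an E2F1 promoter peak a summit within 1000 bp of a TSS. Summit fragments and background were solved from the fold and p-value as (fragments + 1) / (background + 1) and an upper Poisson tail, within a relative tolerance of 2e-05, and all 1056, 15691 and 14167 E2F1 peaks tried gave whole fragments. Intervals cover counting error only. The rules were checked on constructed cases with known answers. All 9 genes are named, and from each comparison list the 2 genes with the highest DMSO E2F1 promoter fold and the 2 with the highest −log10 q of an H3K27me3 promoter peak in shE2F1. Sequences are from GRCh38 and RefSeq, and those at 2 intronic sites are not reported here. The genes and lists were chosen with earlier results of these data known. The input sample was not analysed here, and tests were not possible with 1 library per group.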

Additional observations from a re-analysis of the deposited data

How the results depend on the processing

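The counts of luminal genes with an E2F1 promoter peak, 0, 1 and 3 in untreated, DMSO and GSK126 cells, were unchanged under every window, threshold, start site and overlap rule tried. When peaks had to reach a −log10 q of 5, H3K27me3 promoter counts went from 4 to 0 in control shRNA and from 4 to 0 in shE2F1 and gene body counts from 5 to 0 and from 6 to 0, since no H3K27me3 peak of these genes reached that value. The highest values, at FOXA1, were 4.91 and 4.83, and only 0.388% of control and 1.25% of shE2F1 peaks stood as high. DMSO E2F1 gene body counts went from 2 to 1, since the PGR peaks stood at 3.35 and 3.24. Without the 1000 bp around TSSs, E2F1 gene body peaks went from 2 to 1 in DMSO and from 3 to 0 in GSK126. Smaller changes were seen for H3K27me3. At a −log10 q of 2 the control promoter count was 3, and the gene body counts were 4 and 4. By midpoints the promoter counts were 3 and 3 and the shE2F1 gene body count 5. Within 2000 bp the shE2F1 promoter count was 5, with canonical TSSs alone it was 3, and without TSS windows the gene body counts were 4 and 5. The XBP1 log2 ratio stayed between 0.68 and 0.72. The cover differences of single genes changed size with the setting. At a −log10 q of 5 every one was 0, and at 2 those of ERBB2 and ELF5 were 0. That of XBP1 was 0 without TSS windows, and that of ESR1 went from 0.13 to 1.31 percentage points at a −log10 q of 2. None turned negative. No paired analysis was possible because each group has 1 library. Read depth is unknown, so a missing peak may lie below the threshold of a list.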
